A study of Mus musculus with 6 samples.

Results

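The genes described here are the immediate early transcription factors Fos, Fosb, Jun, Junb, Jund, Atf3, Egr1, Egr2 and Egr3. They were taken as every probe that carries 1 of these mouse symbols in the array's annotation, which gave 9 probes for 9 genes, of 25344 probes and 18545 named genes in all. The genes were chosen by name with their ratios in these same arrays already known, so every value below is a description and none is tested. Each gene has 1 probe, and no second probe of the same symbol checks it. The arrays carried total RNA of mouse testis, of mouse epididymis, and of the stromal vascular fraction (SVF) of mouse adipose tissue, which is the mixture of progenitor, endothelial, immune and other cells left when adipocytes are taken away. The labels give no strain, age, genotype, fat depot or treatment, and do not say how the tissues were prepared. Each tissue is 1 RNA sample. The 3 tissues were set against each other in 3 pairs, with 2 arrays a pair and the dyes Cy3 and Cy5 exchanged between them, so 6 arrays close a loop and both arrays of a pair repeat the same RNAs.

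In most resting cells these genes are transcribed at a low level. A growth factor, a cytokine, injury or stress switches them on within minutes, through MAP kinases acting on serum response factor with its ternary complex partners and on CREB, with no new protein needed. Fos proteins bind DNA as dimers with Jun proteins, and the dimer is called AP-1. Atf3 is a stress-induced relative that dimerises with Jun proteins, and the Egr proteins bind a GC-rich site through zinc fingers. The messenger RNAs of many of them are short-lived, so their level in a tissue sample depends on the state of the cells when RNA was taken.

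The promoter windows of 5 members are shown because they were searched for sites through which this induction is known to run. They also belong to genes with different tissue patterns. RefSeq promoter windows (GRCm38.p6, 250 bases before to 50 after a gene's listed start) were matched by symbol for 7 of the 9 genes, all but Egr1 and Egr3. Capitals mark matches on either strand to the CArG box of serum response factor (CC, then 6 bases of A or T, then GG), the short CRE site TGACG, the full CRE TGACGTCA, the AP-1 site TGANTCA, the EGR site GCGNGGGCG, and TATAAA. The short site is contained in the full CRE. The windows lie at chr12:85473640-85473939 on the plus strand (Fos), chr7:19309996-19310295 on the minus strand (Fosb), chr1:191183284-191183583 on the minus strand (Atf3), chr10:67537619-67537918 on the plus strand (Egr2) and chr8:84978699-84978998 on the minus strand (Junb), and each is written 5′ to 3′ on the gene's strand.
Fos: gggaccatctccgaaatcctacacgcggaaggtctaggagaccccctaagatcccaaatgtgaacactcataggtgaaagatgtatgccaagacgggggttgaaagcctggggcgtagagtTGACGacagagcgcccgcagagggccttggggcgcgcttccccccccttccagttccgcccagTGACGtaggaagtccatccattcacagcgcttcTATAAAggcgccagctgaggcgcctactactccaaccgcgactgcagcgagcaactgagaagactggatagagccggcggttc
Fosb: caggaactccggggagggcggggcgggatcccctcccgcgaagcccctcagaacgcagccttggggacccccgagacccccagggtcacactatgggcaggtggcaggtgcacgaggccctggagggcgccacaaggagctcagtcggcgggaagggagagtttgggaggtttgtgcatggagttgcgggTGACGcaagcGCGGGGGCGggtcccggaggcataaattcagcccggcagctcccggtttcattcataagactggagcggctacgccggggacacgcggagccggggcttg
Atf3: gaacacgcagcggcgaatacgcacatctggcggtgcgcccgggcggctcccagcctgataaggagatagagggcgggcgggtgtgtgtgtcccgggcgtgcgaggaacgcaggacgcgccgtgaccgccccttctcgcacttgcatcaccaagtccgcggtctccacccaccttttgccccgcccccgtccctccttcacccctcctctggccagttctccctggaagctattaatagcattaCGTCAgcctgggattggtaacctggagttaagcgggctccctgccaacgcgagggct
Egr2: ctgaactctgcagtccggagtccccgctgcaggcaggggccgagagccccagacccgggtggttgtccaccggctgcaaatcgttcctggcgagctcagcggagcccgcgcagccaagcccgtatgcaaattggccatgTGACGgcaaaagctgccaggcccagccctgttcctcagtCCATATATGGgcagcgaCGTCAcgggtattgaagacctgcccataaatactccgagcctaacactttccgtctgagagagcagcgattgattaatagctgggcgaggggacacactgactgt
Junb: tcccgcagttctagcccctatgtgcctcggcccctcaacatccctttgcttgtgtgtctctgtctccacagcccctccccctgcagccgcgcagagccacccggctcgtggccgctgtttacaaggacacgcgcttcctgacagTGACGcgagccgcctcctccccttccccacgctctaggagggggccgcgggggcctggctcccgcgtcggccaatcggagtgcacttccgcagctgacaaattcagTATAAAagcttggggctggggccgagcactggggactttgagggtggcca

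Counted from the listed start as +1, the Fos window held TGACG at -129 to -125 and at -66 to -62 and TATAAA at -33 to -28. The Fosb window held TGACG at -60 to -56 and an EGR site at -50 to -42. In Atf3 the short CRE site lay on the opposite strand at -7 to -3. The Egr2 window held the CArG box CCATATATGG at -72 to -63, between short CRE sites at -111 to -107 and, on the opposite strand, -55 to -51. The Junb window held TGACG at -106 to -102 and TATAAA at +1 to +6. Counting a gene when any of its windows holds a match, short CRE sites were found for 5 of the 7 genes, and for 23.0% of the 27025 genes in the table (20.8% of its 32851 windows). These letters hold a CpG, and the member windows with the site had 16 to 27 CpGs, against a median of 7 over all windows, so the shares are not those of windows of like composition. Within these windows a CArG box was found for 1 of the 7 genes, Egr2, and for 1.81% of all genes (1.63% of all windows). In Egr2, 4 of the 5 listed windows held one, but overlapping windows among them held the same CCATATATGG. TATAAA was found for 2 of 7 genes (15.7% of all genes) and the EGR site for 1 of 7 (6.27%). No full CRE (2.03% of all genes) and no AP-1 site (8.97%) was found in these windows, and the windows of Jun and Jund held no exact match to any of the motifs. Bases outside the windows were not searched, so a gene without a match here can still have the site farther from its start. Egr1 and Egr3 had no window to search. Near matches were not counted. The Jun window held TGACATCA, which is close to the full CRE TGACGTCA. The Jund window had 46.7% GC and 3 CpGs, beside medians of 52.7% and 7 over all windows. Fos and Junb both held a short CRE site and TATAAA, with TATAAA before the listed start in Fos and from the start itself in Junb. Any relation of these sites to the tissue ratios was not tested.

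Values below are log2 ratios, read with the Cy5 tissue as numerator and with the sign of the dye-exchanged array turned, so that both arrays of a pair run the same way. The direction is likely and the base of the logarithm is taken as 2, and neither is stated in the labels. A gene was called higher in a tissue when it was at least 2-fold higher on both arrays, which is a rule of size and not a test. Means are given ± SD over the 2 arrays (n = 2 hybridisations of the same RNAs), an error that leaves out differences between animals. No p-value is given, because there is 1 RNA sample per tissue. Fewer cells of a type and less RNA per cell cannot be told apart in such tissue samples. Over all named genes, which are not independent replicates, the turned arrays had a Pearson correlation of 0.88 in the testis and SVF pair, 0.71 where epididymis met SVF and 0.81 where epididymis met testis. Marker genes were listed with earlier results of these arrays known, so they are no independent check of the labels. Of these, 7 of 7 germ cell markers were higher in testis than in SVF. All 5 of 5 measured duct secretory markers were higher in epididymis than in either other tissue. In SVF, 6 of 6 macrophage and 5 of 5 mesenchymal progenitor markers were higher than in testis. Other marker lists were called only in part, and their counts are given further below.

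The 9 genes fell into 4 patterns. Fos, Jund and Egr1 were highest in SVF, lower in epididymis and lowest in testis, with the 2-fold rule met in all 3 pairs, a pattern that 2.07% of named genes shared. For Fos the order of the 2 organs rests on the direct pair alone, since its means against SVF were -6.39 for testis and -6.67 for epididymis. Fosb, Jun and Atf3 were higher in SVF than in both organs, while epididymis and testis were not called different (4.76% of named genes). Egr2 alone was high in SVF and in epididymis and low in testis (5.2% of named genes). Junb and Egr3 were not called in any pair, as were 52.9% of named genes. Set against testis, SVF was called higher for 7 of the 9 genes, where 16% of named genes were, and testis for none, where 20.7% were. Set against epididymis, SVF was called higher for 6 of 9 (8.68% of named genes) and epididymis for none (10.2%). Between the organs, epididymis was called higher for 4 of 9 (14.3%) and testis for none (18%). These shares are given for scale only, since the genes were picked with their ratios known. The median log2 ratio of the 9 genes was -4.23 for testis over SVF, -3.52 for epididymis over SVF and 0.98 for epididymis over testis, beside medians of 0.0038, 0.07 and -0.0035 over all named genes.

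**Figure D1:**
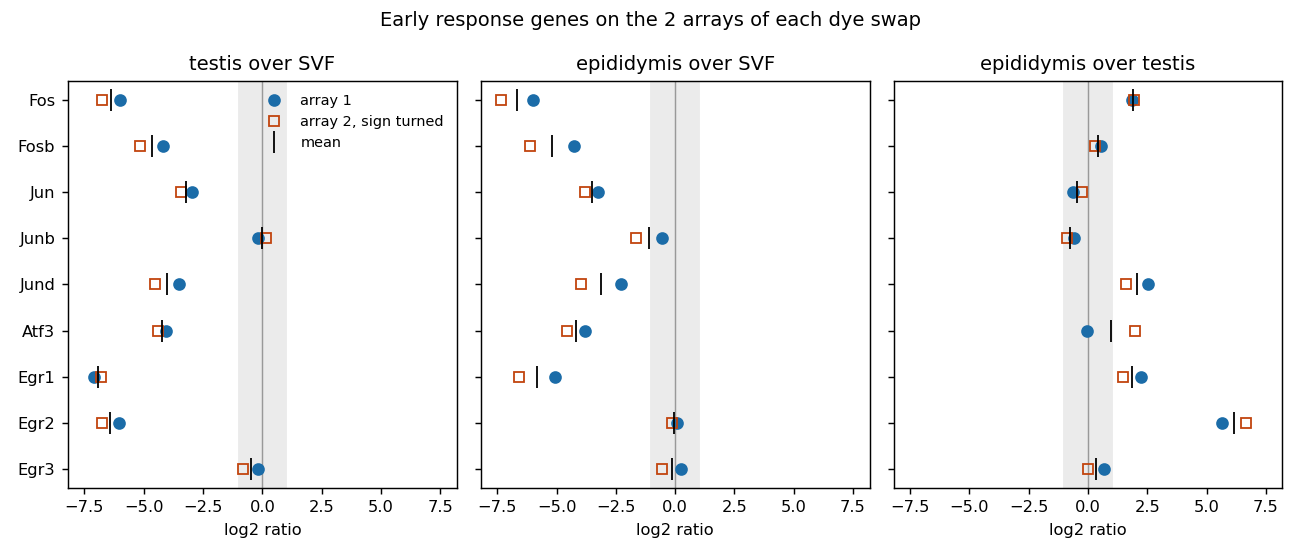
Log2 ratio of each of the 9 early response genes (rows) in the 3 tissue pairs (panels), with filled circles for the first array, open squares for the dye-exchanged array after its sign was turned, and bars for the mean. The grey band spans a log2 ratio of -1 to 1. In both comparisons with SVF, Junb and Egr3 lie in or near the band and Fos and Egr1 lie at -5.07 or lower on every array, while Egr2 lies within the band only for epididymis over SVF.

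Fos encodes the founding Fos subunit of AP-1, and its ratios against SVF were among those farthest toward SVF of all named genes. For testis over SVF the 2 arrays gave -6.01 and -6.77, and for epididymis over SVF they gave -6.01 and -7.33. Both arrays of both pairs put SVF far above the organ. The means were -6.39 ± 0.54, which is 84.0-fold and rank 15 of 18545 from the lowest ratio, and -6.67 ± 0.94, which is 102-fold and rank 3. Between the organs the arrays gave 1.87 and 1.93 for epididymis over testis, so that epididymis was 3.73-fold higher (1.90 ± 0.04). Of the called ratios of the 9 genes, this one had the smallest SD between arrays.

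Fosb, the close relative of Fos that is also induced as a full-length and a truncated form, had the same direction against SVF with smaller ratios. The arrays gave -4.18 and -5.14 for testis over SVF and -4.27 and -6.13 for epididymis over SVF. The means of -4.66 ± 0.68 and -5.20 ± 1.32 correspond to 25.3-fold and 36.8-fold higher levels in SVF. The 2 arrays of the second pair lay further apart than for any other member in the comparisons with SVF. For epididymis over testis they gave 0.54 and 0.31, a mean of 0.43 ± 0.16 that did not meet the rule. The direct pair therefore did not order the 2 organs for Fosb as it did for Fos.

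The 3 Jun genes encode the partners that Fos proteins need to bind DNA, and they did not share a pattern. Jun, the AP-1 subunit that can also pair with itself, was at -2.98 and -3.45 for testis over SVF and at -3.24 and -3.80 for epididymis over SVF. It was thus 9.28-fold (-3.21 ± 0.33) and 11.5-fold (-3.52 ± 0.40) higher in SVF, with all 4 arrays close together. Between the organs Jun was at -0.63 and -0.27, on the testis side on both arrays and within the 2-fold band.

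Jund is the Jun gene that many cells express without a stimulus, and as background it is the least inducible of the 3. It was 16.1-fold higher in SVF than in testis (-3.50 and -4.52 on the 2 arrays, mean -4.01 ± 0.72) and 8.75-fold higher than in epididymis (-2.29 and -3.97, mean -3.13 ± 1.19). Epididymis was above testis on both arrays, at 2.51 and 1.59 (2.05 ± 0.65), which is 4.15-fold. The probe values of Jund therefore put the 3 tissues in the order SVF, epididymis, testis, as for Egr1 and, by the direct pair of the organs, for Fos.

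Junb, the Jun gene that is commonly induced together with Fos and can restrain Jun, did not follow them. Its arrays gave -0.19 and 0.14 for testis over SVF, with opposite signs and a mean of -0.03 ± 0.23. For epididymis over SVF they gave -0.54 and -1.64, and the mean of -1.09 ± 0.78 passed 2-fold while the first array did not. For epididymis over testis they gave -0.57 and -0.90 (-0.74 ± 0.23). On all 4 arrays that carried epididymis, Junb was lowest in epididymis, by less than 2-fold on 3 of them.

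Atf3, a bZIP factor induced by many kinds of cell stress, was at -4.05 and -4.41 for testis over SVF and at -3.82 and -4.55 for epididymis over SVF. SVF was 18.8-fold (-4.23 ± 0.26) and 18.2-fold (-4.19 ± 0.52) higher, and the 4 arrays overlapped between the pairs. For epididymis over testis the arrays disagreed, with -0.03 on the first and 1.99 on the second (0.98 ± 1.43), the largest SD of any of the 27 member ratios. Without the first array Atf3 would be called higher in epididymis, and without the second it would not. Another 3 probes on the array carry the human symbol ATF3 and a human accession, and they were kept out of the gene's value. For testis over SVF their means were -0.84 ± 0.09, -3.73 ± 0.30 and -2.33 ± 0.24, and for epididymis over SVF they were -0.64 ± 0.06, -5.11 ± 1.48 and -1.27 ± 0.66. All 3 had the sign of the mouse probe on all 4 arrays with SVF, and 1 of them was called in both comparisons. For epididymis over testis their arrays gave 1.14 and 0.04, 1.78 and 0.14, and 1.49 and 0.49, so that each was above 1 on the first array and below 1 on the second, the reverse of the mouse probe.

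Egr1, the zinc finger factor that responds to nearly every stimulus of this kind, had the largest ratio of the 9 genes against testis. Its arrays gave -7.08 and -6.80, a mean of -6.94 ± 0.20, so that SVF was 123-fold higher and the gene ranked 3 of 18545 from the lowest ratio. For epididymis over SVF they gave -5.07 and -6.60 (-5.84 ± 1.08), which is 57.2-fold. Epididymis was 3.61-fold above testis, with 2.23 and 1.48 on the arrays (1.85 ± 0.53). Over the 6 arrays, the member nearest to Egr1 was Fos, at a Euclidean distance of 1.70 between the 2 sets of log2 ratios, the smallest distance among the 36 pairs of members.

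Egr2, which is also known for its part in Schwann cell myelination and in lymphocytes, matched Fos and Egr1 against testis and not against epididymis. For testis over SVF the arrays gave -6.06 and -6.78 (-6.42 ± 0.50), an 85.6-fold higher level in SVF. For epididymis over SVF they gave 0.07 and -0.15 (-0.04 ± 0.16), the smallest mean and the smallest SD of the 9 genes in that pair. For epididymis over testis they gave 5.67 and 6.68 (6.17 ± 0.72), so epididymis was 72.2-fold higher and 99.96% of named genes had a lower ratio. The ratio of epididymis over SVF obtained through testis was -0.25, beside -0.04 measured directly. Of the promoter windows printed above, that of Egr2 is the one with a CArG box. Egr1 and Egr3 had no window, and any relation of the box to these ratios was not tested.

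Egr3, often induced downstream of calcium and antigen receptor signals, stayed within 2-fold on all 6 arrays. The values were -0.18 and -0.80 for testis over SVF, 0.25 and -0.54 for epididymis over SVF, and 0.67 and -0.01 for epididymis over testis. The sign differed between the 2 arrays in the last 2 pairs. A ratio near 0 can come from equal levels or from a signal near background in both tissues, and spot intensities, which would tell these apart, were not analysed here.

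The level of each gene in each tissue was estimated from all 6 arrays by least squares over the loop and is given as log2 relative to the mean of the 3 tissues, with the residual SD (4 degrees of freedom among arrays). SVF came first for all 9 genes. Fos stood at 4.35 in SVF, -1.59 in epididymis and -2.76 in testis (residual SD 1.04). Egr1 stood at 4.26, -1.33 and -2.93 in the same order (0.68), and Jund at 2.38, -0.36 and -2.02 (0.91). For these 3 genes every neighbouring pair of tissues met the 2-fold rule on the direct arrays, but the residual SD bars of epididymis and testis overlapped for Fos and Jund, and not for Egr1. Fosb stood at 3.29, -1.59 and -1.70 (0.84), Jun at 2.24, -1.32 and -0.92 (0.30), and Atf3 at 2.81, -1.07 and -1.74 (0.86). In these 3 genes SVF stood apart, and epididymis and testis were not told apart. Egr2 stood at 2.15, 2.05 and -4.20 (0.45), with SVF and epididymis not told apart. Junb (0.37, -0.61 and 0.24, with 0.44) and Egr3 (0.21, 0.06 and -0.27, with 0.43) had no neighbouring tissues that met the rule. The distance from the highest to the lowest tissue ran from 1.40-fold for Egr3 to 146-fold for Egr1.

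**Figure D2:**
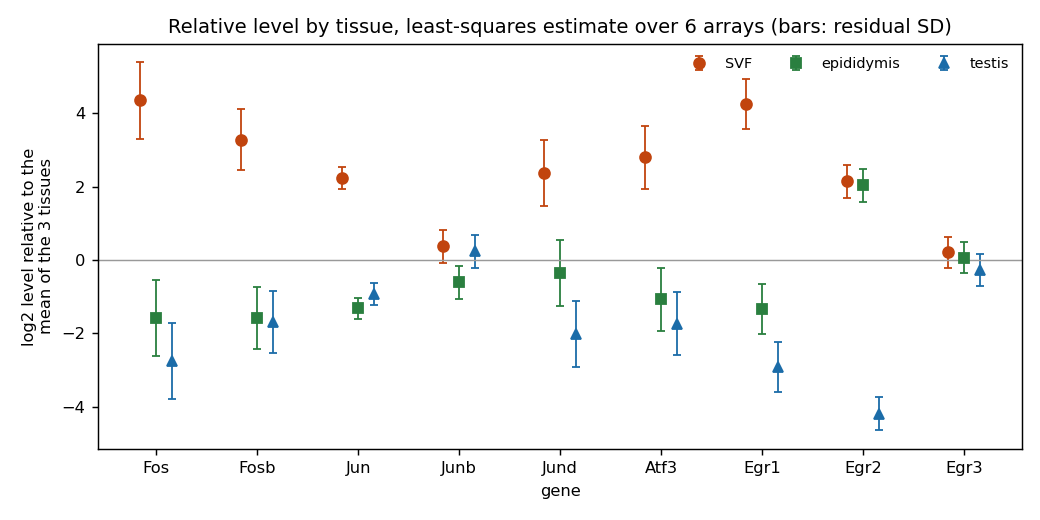
Estimated log2 level of each gene in SVF (circles), epididymis (squares) and testis (triangles), relative to the mean of the 3 tissues, from least squares over 6 arrays. Bars are the residual SD of that gene. SVF is far above both organs for Fos, Fosb, Jun, Jund, Atf3 and Egr1, epididymis sits beside SVF and far above testis for Egr2 (2.05, 2.15 and -4.20), and the bars of all 3 tissues overlap for Egr3.

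The loop gives a second estimate of each ratio, because epididymis over SVF can also be had by adding testis over SVF and epididymis over testis. For Fos the direct mean was -6.67 and the sum through testis -4.49, a gap of -2.18. The gap was -1.17 for Jund, -0.97 for Fosb, -0.93 for Atf3 and -0.75 for Egr1, so that 5 of the 6 genes called higher in SVF in both comparisons had a larger ratio directly than through testis. Jun, the exception, had -3.52 directly and -3.66 through testis. The median size of the gap was 0.75 for the 9 genes and 0.23 for all named genes. Among the 293 named genes called higher in SVF in both comparisons with mean ratios of -3 or lower in both, the median gap was -0.45 and 78.5% were below 0. The 2 dye orientations of a pair also differed: for epididymis over SVF all 9 genes had a lower ratio on the second array, with SVF in Cy5, as did 57.3% of named genes, and for testis over SVF 7 of 9 did (60.2%). The gaps are taken between means that hold both orientations once. An additive dye effect cancels in such means, while one that changes with the signal need not. The source of the gaps was not tested. Every called ratio kept its direction in the loop estimate, which includes the direct mean and so is no independent check of direction. The size of the Fos ratio of epididymis over SVF differed 4.53-fold between the 2 routes. The means of Fos against SVF, -6.39 for testis and -6.67 for epididymis, did not put epididymis above testis, unlike the direct mean of 1.90.

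**Figure D3:**
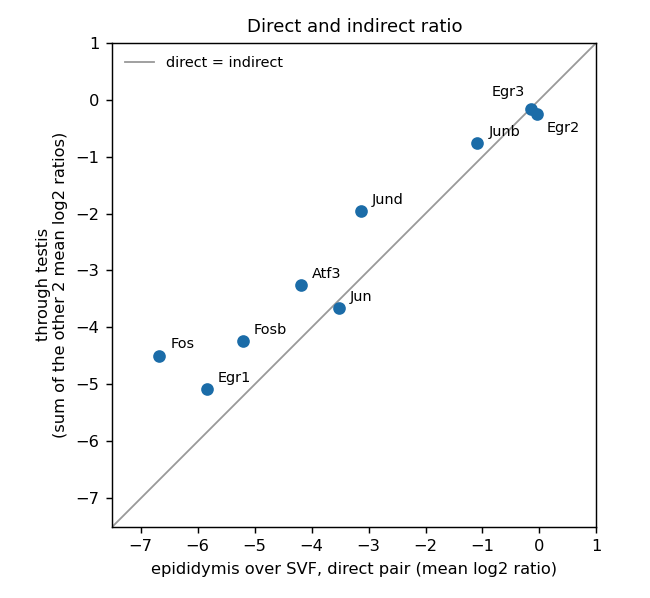
Mean log2 ratio of epididymis over SVF measured directly (horizontal axis) and obtained through testis as the sum of the other 2 mean log2 ratios (vertical axis), 1 point per gene, with the line of equality. Jun, Egr2 and Egr3 lie on or near the line, and Fos lies farthest from it (-6.67 directly, -4.49 through testis).

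Other genes of the pathway are given from lists of names. They were drawn up with earlier results of these arrays known, and their counts are to be read beside the shares of all named genes given above. Of 17 listed bZIP genes of the AP-1 and ATF families outside the 9, 16 were measured, of which 6 were called toward SVF and 1 toward testis in that pair (median -1.03). The largest were Jdp2, a repressor that pairs with Jun proteins (-3.62 ± 0.20), the translation stress factor Atf4 (-3.29 ± 0.07) and the small Maf gene Maff (-3.10 ± 0.67). Atf2, a CRE-binding partner of Jun, was 7.49-fold higher in testis (2.90 ± 0.53). Against epididymis 6 of the 16 were higher in SVF and none was lower (median -0.74), and between the organs 3 were higher in epididymis and 1, Atf2, in testis (median 0.26). Of the 3 measured genes that are related to the Egr genes or encode their corepressors (Nab1, Nab2 and Wt1), none was called against SVF in either comparison, and 1, Nab1, was higher in epididymis than in testis (1.11 ± 0.05, named after its values were seen). Median ratios in these 2 lists were therefore nearer 0 than those of the 9 genes.

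Upstream of the promoters, 3 of 11 transcription factor and cofactor genes were called toward SVF against testis, and 0 toward testis (median -0.40). These were serum response factor itself, Srf (-2.57 ± 0.07), the cyclic AMP responsive factor Crem (-2.46 ± 0.36) and the ternary complex factor Elk4 (-1.60 ± 0.48). Against epididymis also 3 of 11 were higher in SVF (median -0.66), with Crem 11.4-fold higher (-3.51 ± 0.74) and Srf 2.22-fold (-1.15 ± 0.19). Between the organs only Srf of these 11 was called, toward epididymis (1.46 ± 0.19, list median -0.33). Of 22 listed genes for MAP kinases, MAP kinase kinases and ribosomal S6 kinases, 16 were measured, with 5 called toward SVF and 2 toward testis in that pair (median -0.36). Mapk12 (-2.82 ± 0.30), Mapk14 (-2.19 ± 0.15) and Map2k1 (-2.11 ± 0.41) led toward SVF, while the kinase genes Mapk8 (1.57 ± 0.36) and Mapk10 (1.14 ± 0.11), which encode kinases that phosphorylate Jun, were higher in testis. Against epididymis 1 of the 16 was higher in SVF and 1 was lower (median 0.04), and between the organs 4 were higher in epididymis and 1 in testis (median 0.24).

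Of 30 other immediate early genes, 24 were called toward SVF against testis and 1 toward testis (median -3.50), and 18 were higher in SVF than in epididymis and none was lower (median -2.06). The prostaglandin synthase gene Ptgs2 (-5.77 ± 0.18), the growth factor gene Hbegf (-5.44 ± 0.69) and the kinase gene Sgk1 (-5.20 ± 0.20) had the largest ratios against testis. Between the organs, 13 of the 30 were higher in epididymis and 1 was higher in testis (median 0.51). That 1 gene, Arc, the synaptic early gene, was 2.41-fold higher in testis than in SVF (1.27 ± 0.11) and 8.34-fold higher in testis than in epididymis (-3.06 ± 0.27). Ptgs2 had the pattern of Egr2, at -0.05 ± 0.74 for epididymis over SVF and 4.78 ± 0.19 for epididymis over testis.

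Of 18 listed targets of AP-1 or EGR factors, 16 were measured, with 10 called toward SVF and 1 toward testis in that pair (median -2.65). Against epididymis 9 were higher in SVF and none was lower (median -1.52), and between the organs 4 were higher in epididymis and 1 in testis (median 0.72). The urokinase gene Plau (-6.98 ± 0.00), Il6 (-6.43 ± 0.90) and the adhesion receptor gene Icam1 (-4.31 ± 0.19) led against testis, and the growth factor gene Pdgfa was 2.79-fold higher in testis (1.48 ± 0.09). Heat shock and chaperone genes, another arm of the stress response, were not all on one side: of 19 listed, 16 were measured, and 6 were called toward SVF and 5 toward testis in that pair (median -0.07). Against epididymis 3 of them were higher in SVF and 1 was lower (median -0.15), and between the organs 4 were higher in epididymis and 5 in testis (median -0.23). The inducible Hspa1b was 36.1-fold higher in SVF than in testis (-5.17 ± 0.19) and 2.41-fold higher than in epididymis (-1.27 ± 0.05). Its arrays for epididymis over testis lay far apart (1.60 ± 3.74). The germ cell chaperones Hspa2 (3.50 ± 0.58) and Hspa1l (3.43 ± 0.23) were higher in testis than in SVF.

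**Figure D4:**
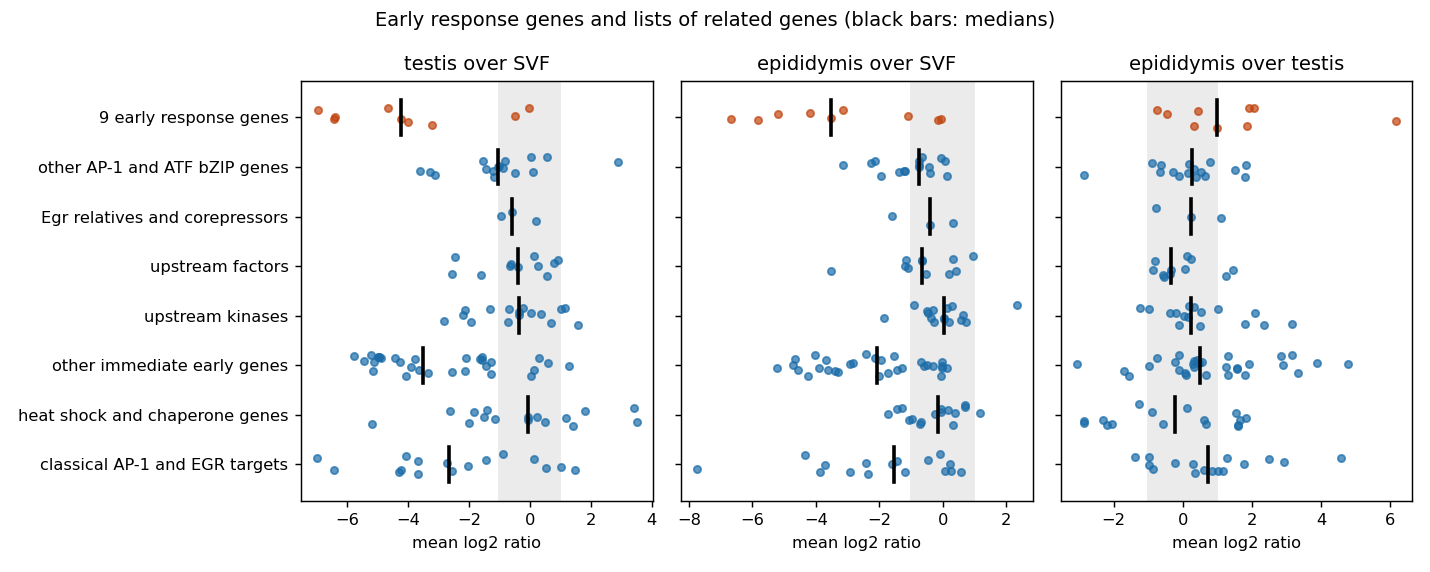
Mean log2 ratio of each gene (points, with vertical jitter) in the 3 tissue pairs for the 9 early response genes and the 7 related lists, with black bars at the medians and a grey band from -1 to 1. In the 2 comparisons with SVF the medians of the 9 genes (-4.23 and -3.52) and of the other immediate early genes (-3.50 and -2.06) lie farthest below 0. The medians of the Egr relatives and corepressors, the upstream factors, the kinases and the heat shock genes lie within the band in all 3 panels.

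Named genes outside the 9 were ranked by their distance from the members over the 6 arrays, as the square root of the summed squared differences between log2 ratios. Nearest to the median profile of the 9 genes were Fbln2, Icam1, S1pr1, Medag and Mcpt4, at distances from 0.73 to 0.81. The 3 nearest to Fos were Lilrb4a, Reg3b and Cd83 (1.37 to 1.84), and to Egr1 they were Nfkbiz, Cxcl10 and Reg3b (1.40 to 1.63). Fosb had F13a1, Myct1 and Klra8 as its nearest (0.81 to 1.32), Jun had Atp13a5, Ebf2 and Nmb (0.47 to 0.61), Jund had Slco2b1, C1qc and S100a8 (0.96 to 1.10), and Atf3 had Icam1, Ccl12 and Neurl3 (0.87 to 1.14). Egr2 had no gene closer than 2.18, and its nearest were Ism1, Ptgs2 and Sat1. For Junb (Kif11, Mir17hg and Slc15a4, 0.57 to 0.62) and Egr3 (Get4, App and Zfp207, 0.15 to 0.19) the nearest genes are those of small ratios, where many profiles lie close together.

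Cell type markers were called in all 3 pairs, some in the direction of the 9 genes and some against it. In the testis and SVF pair, 7 of 7 germ cell, 5 of 5 Leydig cell and 4 of 5 Sertoli cell markers were higher in testis. Against testis, 6 of 6 measured macrophage markers were higher in SVF (means from -5.14 to -1.66), as were 4 of 5 T and NK cell markers (-5.31 to -0.62), 3 of 5 endothelial markers (-4.89 to -0.49), 5 of 5 mesenchymal progenitor markers (-5.17 to -3.17) and 3 of 4 mesothelial markers (-4.94 to 0.07). Against epididymis the counts were 6 of 6, 4 of 5, 3 of 5, 4 of 5 and 2 of 4 in the same order. Of 5 smooth muscle markers, 3 were called toward SVF and 1 toward testis in that pair (-2.89 to 3.62), and 3 were higher in epididymis than in SVF (0.29 to 4.07). Epididymis also held 5 of 5 epithelial markers (3.31 to 4.38) and 5 of 5 measured duct secretory markers (6.88 to 8.57) above SVF. In the pair in which Fos, Jund, Egr1 and Egr2 were higher in epididymis than in testis, so were 5 of 5 epithelial markers (2.41 to 4.19), 4 of 5 smooth muscle markers (0.77 to 3.70), 4 of 5 mesenchymal progenitor markers (-0.01 to 3.78), 3 of 6 macrophage markers (-0.37 to 2.07), 2 of 5 T and NK cell markers (-1.03 to 1.92), 1 of 5 endothelial markers (-0.09 to 1.90) and 1 of 4 mesothelial markers (0.46 to 5.52). In that pair 5 of 7 germ cell, 4 of 5 Leydig cell and 4 of 5 Sertoli cell markers were higher in testis. The part of cell makeup in the ratios of the 9 genes was not tested, and with 1 RNA sample per tissue the tissue, its cell makeup and the way it was prepared cannot be told apart.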

How the data were processed

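Gene expression was measured on 6 two-channel arrays that pair testis, epididymis and SVF RNA. The table deposited by the authors holds 1 signed log ratio per probe and array, read here as log2; the background correction and normalization were not given in the sources used here, nor were the log base and direction. The labels name Qiagen for extraction and Ambion for labelling. As deposited, the 2 arrays of a pair had Pearson correlations over probes of -0.86 (testis with SVF), -0.64 (epididymis with SVF) and -0.77 (epididymis with testis), opposite in sign as dye exchange gives under the labelled dyes, and deposited column medians ran from 0.005 to 0.114.

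Probes were named from the platform annotation by gene ID in the mouse gene table of GRCm38.p6 (20456 probes) or by symbol (220), or kept their annotated name (248), while 158 probes with symbols in human spelling, 30 with several genes and 4232 with no annotation row stayed unnamed. A gene's value is the mean over its probes. Members and gene lists were chosen with earlier results of these data known. Of each list, the 3 called genes with the largest ratio of testis over SVF and up to 2 called against the list's median are named, and for each member the 3 nearest genes, with 5 for the median profile. The size rule and the loop estimate were tested on simulated data. Alternatives were array centring, the loop estimate, other folds, single probes, complete genes, natural logarithms and leaving out each array. The number of arrays limits the precision. Python 3.11.15, pandas 2.3.3 and numpy 2.4.6 were used.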

Additional observations from a re-analysis of the deposited data

How the results depend on the processing

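The counts of members called against SVF, 7 of 9 for testis and 6 of 9 for epididymis, stayed within 1.5 times under every alternative run, and no called member ratio changed sign. Much of this was fixed beforehand, because a called gene has already passed the size rule on each array of its pair. Leaving out an array, the mean alone and natural logarithms could add calls, but could not remove one or turn its sign. The 4-fold rule could remove calls but not turn a sign. Centring and the loop estimate could do either, and with both the counts against SVF stayed at 7 and 6. Junb joined the genes higher in SVF than in epididymis (7 of 9) on the mean alone and without the first array. For epididymis over testis, 1 of 9 genes, Egr2, remained at 4-fold on both arrays, which Fos, Jund and Egr1 did not reach. Leaving out 1 array of that pair gave 4 or 5 called genes, with Atf3 added without the first array, and moved the median from 0.98 to between 0.67 and 1.48. Read as natural logarithms, the medians would be -6.11 for testis over SVF and -5.08 for epididymis over SVF on the log2 scale, so the printed folds rest on the base. By the loop estimate 22 of the 27 member ratios moved by no more than the SD between their arrays. The exceptions were Fos, Atf3 and Egr1 for testis over SVF (-7.12, -4.54 and -7.19) and Fos and Fosb for epididymis over testis (1.17 and 0.11). Centring moved none of the 27 beyond that SD. The settings of single probes and complete genes could not differ from the main one, because each member has 1 probe and no value was missing. No paired analysis was possible because each tissue is 1 RNA sample and the replicate number marks only the dye orientation. Signal over background is unknown here, which limits what a ratio near 0 shows.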
